A study of Homo sapiens with 16 samples.

Results

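Lysosomal hydrolases are the acid enzymes that digest proteins, glycans, sulfated sugars and lipids inside the lysosome, and the membrane glycoproteins LAMP1, LAMP2 and SCARB2 line the organelle that holds them. Most of the enzymes are made in the endoplasmic reticulum, tagged with mannose 6-phosphate in the Golgi and carried to the lysosome by receptors for that tag. Many of their genes share a short promoter sequence, the CLEAR element, that is bound by TFEB, a transcription factor known for switching on lysosomal genes when nutrients are low. The 41 genes described here were chosen by name, as 12 proteases, 13 glycosidases, 5 sulfatases, 6 lipid and phosphate hydrolases, 2 activator proteins and 3 membrane glycoproteins. They stand among 39550 gene names in the deposited tables, of which 15958 passed the filter on low values and were tested, all 41 included.

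The cells were A549, an established human lung adenocarcinoma line, carrying an overexpressed fusion of the tetraspanin CD63, a protein of late endosomes, lysosomes and exosomes, to the small luciferase Nluc. They received compound 5G6, 6D7 or 7F8, which the labels give by code name only, or DMSO, the solvent control, and were harvested at 4 h or at 48 h. A dose of 4 µM stands in the labels of all treatments, also those of DMSO. Each of the 8 groups has 2 libraries of polyA RNA, called biological replicates in the series description, which makes 16 libraries from 1 line. By its title the study is about exosome release and the AMPK/SREBP pathway.

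Levels are in TPM, a length-scaled transcript abundance, which allows levels of different genes to be compared. Mitochondrial genes were taken out and the rest rescaled, because they held 6.13 and 6.48 percent of the deposited TPM in the 6D7 libraries at 48 h and 18.9 to 32.5 percent in the other 14. In those 14 the mitochondrial gene TRNC alone held 153234 to 286119 of the deposited TPM, and in the 6D7 libraries at 48 h it held 0. The gap is thus no measure of the other mitochondrial genes. Libraries held 6.10 to 8.86 aligned gigabases and 13378 to 14909 genes with at least 1 TPM. All 11 lung epithelial and A549 markers reached 1 TPM in at least 1 library, and their levels summed to 23807 to 28548 TPM at 4 h. At 48 h these sums were 17621 and 20595 TPM with 5G6, 8669 and 21114 with 6D7, 11855 and 13588 with 7F8 and 25089 and 29266 with DMSO, so every compound library was below both DMSO libraries and 6D7 replicate 1 stood apart from replicate 2. EPCAM, an epithelial adhesion molecule, had 0.375 and 0.799 TPM with 7F8 at 48 h and 7.70 and 7.84 with DMSO. The markers did not all move in 1 direction. At 48 h KRT19 had 291 and 391 TPM with 5G6, 263 and 352 with 6D7, 16.7 and 39.9 with 7F8 and 37.4 and 80.7 with DMSO. KRT8 had 3427 and 3394 TPM with 5G6 and 3039 and 2864 with DMSO. The enzyme ALDH1A1, also in the sum, had 3068 and 4226 TPM with 5G6 and 7708 and 8882 with DMSO. A lower sum is thus not a lower level of each epithelial marker. The part of these shifts in the results was not tested. Of 7 leukocyte markers only CD14 reached 1 TPM, and the 3 endothelial markers PECAM1, CDH5 and VWF stayed below 1 TPM in every library. Fibroblast markers did so too except COL1A1.

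Each gene was tested with limma on log2(TPM + 1), with p adjusted over all 15958 genes by Benjamini-Hochberg (BH). Called means an adjusted p under 0.05. Fold changes are on that scale, which understates the change of low genes. Such p-values reflect only how far these samples spread. In bulk RNA, fewer cells of a kind and less RNA per cell cannot be told apart, and the 3 compounds at one time share the same DMSO libraries.

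RefSeq promoter windows of GRCh38.p14, from 250 bases before to 50 after the start of transcription, were listed for 29 of the 41 genes. Some genes had several start sites, which made 38 windows. A gene was counted as holding a motif if any of its windows did, here and over all genes. The E-box CACGTG was searched on both strands together with the CLEAR cores TCACGTGA and GTCACGTG, which contain it. CACGTG was held by 8 of the 29 genes (27.6 percent), ARSB, CTSA, CTSD, CTSF, GAA, GALNS, LAMP1 and NEU1, and by 8.77 percent of 27305 genes in all. TCACGTGA was held by 4 of the 29 (13.8 percent, against 1.18 percent of all) and GTCACGTG by 6 (20.7 percent, against 2.93 percent of all). Promoters are shown for NEU1, CTSD and CTSA, called with all 3 compounds at 48 h, and LAMP1, called with 7F8 only. The windows are chr6:31862772-31863071 on the minus strand for NEU1, chr11:1763878-1764177 on the minus strand for CTSD, chr20:45891085-45891384 on the plus strand for CTSA and chr13:113296989-113297288 on the plus strand for LAMP1. Capitals mark matches to any of the motifs, 5′ to 3′ along the gene's strand.
NEU1: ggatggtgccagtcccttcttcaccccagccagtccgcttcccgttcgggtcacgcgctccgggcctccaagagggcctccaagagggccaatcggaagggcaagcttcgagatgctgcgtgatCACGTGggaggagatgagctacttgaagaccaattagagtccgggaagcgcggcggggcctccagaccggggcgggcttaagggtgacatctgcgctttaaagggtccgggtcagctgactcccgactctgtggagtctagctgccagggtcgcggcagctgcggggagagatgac
CTSD: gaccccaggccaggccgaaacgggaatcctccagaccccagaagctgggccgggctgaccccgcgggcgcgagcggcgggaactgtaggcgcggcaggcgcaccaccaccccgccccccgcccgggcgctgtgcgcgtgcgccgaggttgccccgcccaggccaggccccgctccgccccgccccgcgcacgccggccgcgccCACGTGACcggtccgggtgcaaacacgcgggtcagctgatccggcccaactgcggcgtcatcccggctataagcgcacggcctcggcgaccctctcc
CTSA: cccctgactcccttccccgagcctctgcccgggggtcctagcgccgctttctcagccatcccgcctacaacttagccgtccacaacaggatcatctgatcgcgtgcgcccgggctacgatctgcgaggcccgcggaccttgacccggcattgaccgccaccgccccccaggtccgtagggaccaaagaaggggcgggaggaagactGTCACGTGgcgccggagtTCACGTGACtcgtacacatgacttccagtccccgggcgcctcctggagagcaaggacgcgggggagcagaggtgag
LAMP1: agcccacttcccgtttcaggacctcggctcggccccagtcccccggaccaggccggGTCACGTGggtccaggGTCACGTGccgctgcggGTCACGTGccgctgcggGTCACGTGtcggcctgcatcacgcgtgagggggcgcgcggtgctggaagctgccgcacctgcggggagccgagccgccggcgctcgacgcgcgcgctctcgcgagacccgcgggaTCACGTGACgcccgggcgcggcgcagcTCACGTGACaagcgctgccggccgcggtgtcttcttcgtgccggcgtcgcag
NEU1 had 1 E-box, at -126 relative to the start site, and CTSD 1, at -47. CTSA had 2, and the LAMP1 window held 6, the most among these 4. A match says nothing of whether a factor binds there.

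After 48 h much of the group was higher with each compound. With 5G6, 12 of the 41 genes were called higher than in DMSO, with 6D7 10 and with 7F8 23, and 0 were called lower with any of them. Over all tested genes the share called higher was 1.95 percent with 5G6, 2.39 percent with 6D7 and 2.29 percent with 7F8. The median log2 fold change of the 41 was 0.71 with 5G6, 0.56 with 6D7 and 0.97 with 7F8, which is 1.64-fold, 1.47-fold and 1.97-fold. Medians over all tested genes were -0.07, -0.06 and -0.18. At an unadjusted p below 0.05 stood 23, 22 and 31 of the 41, beside 3031, 3429 and 3929 of the 15958. Both compound libraries lay above both DMSO libraries for 32 of the 41 under 5G6, 26 under 6D7 and 34 under 7F8, and below both for 1, 2 and 4. Of all tested genes 20, 20.7 and 16.7 percent lay above in this way and 28.7, 27.1 and 38.7 percent below. NEU1, CTSA, CTSB, CTSD, ASAH1, HEXA, NAGLU, SMPD1 and PSAP were called in each of these comparisons, which share their DMSO libraries. The genes with an E-box in the promoter window included 4 of 8 called with 5G6, 4 of 8 with 6D7 and 5 of 8 with 7F8. Genes without one included 2, 1 and 9 called of 21. The 12 genes with no listed window are in neither count. Among them were CTSB, ASAH1, HEXA, NAGLU and PSAP, called with each compound. GALNS and ARSB held an E-box and were called with none of the compounds. Of the genes with the CLEAR core TCACGTGA, 1, 1 and 3 of 4 were called, and of those without it 5, 4 and 11 of 25. With GTCACGTG these were 2, 2 and 4 of 6, and without it 4, 3 and 10 of 23.

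**Figure D1:**
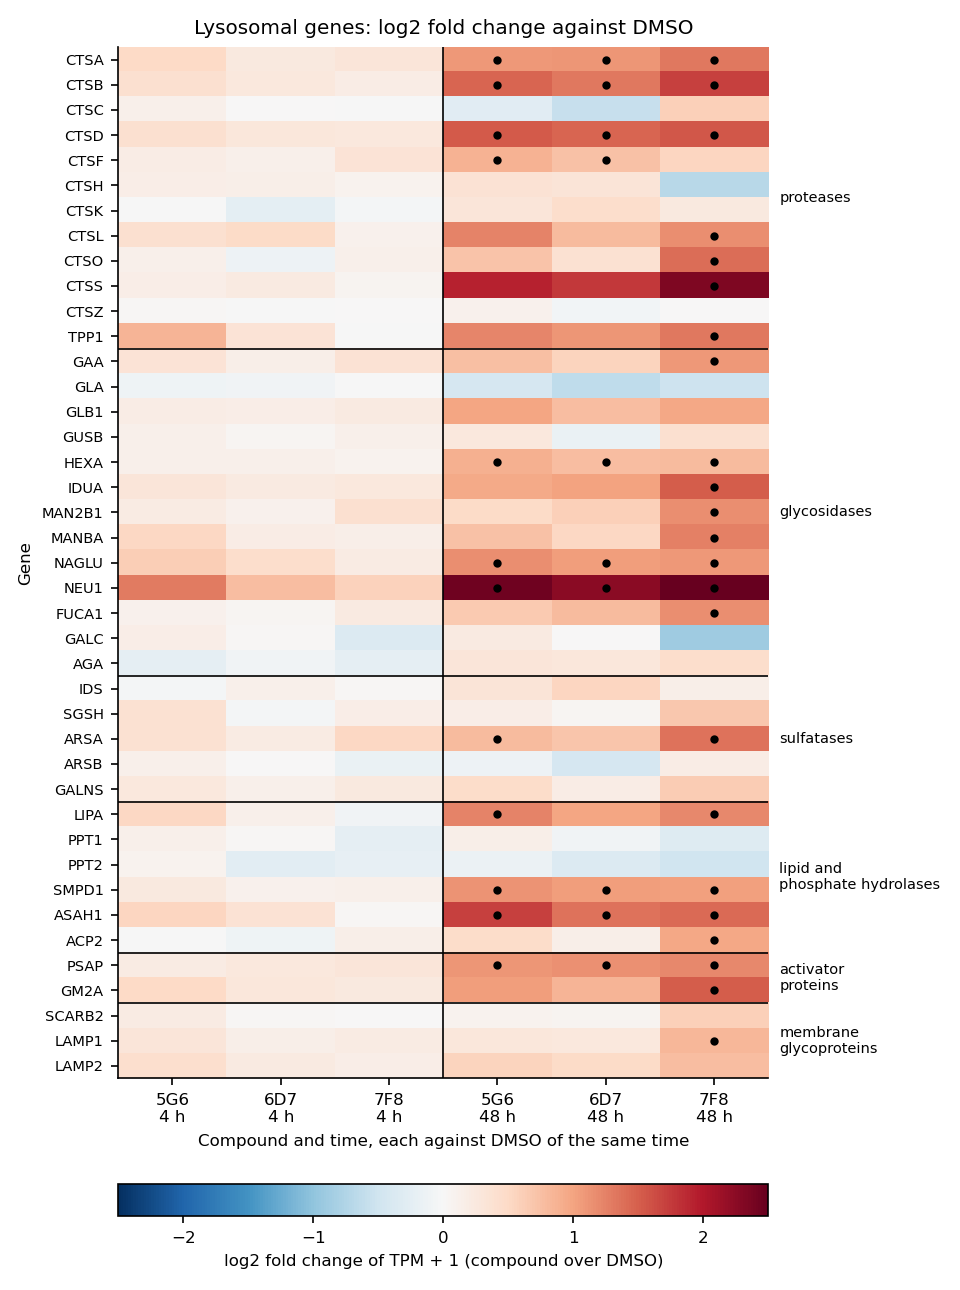
Log2 fold change of TPM + 1 against DMSO of the same time for the 41 genes (rows, by role) with each compound at 4 h and 48 h (columns). Color runs from blue (lower than DMSO) to red (higher), and a dot marks a limma BH-adjusted p below 0.05; all 45 dots stand at 48 h, in the red.

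The counts moved with single libraries. Without DMSO replicate 1 at 48 h, 1 gene was called with 5G6, 1 with 6D7 and 2 with 7F8, and over all genes the calls in these fits were 7 higher and 2 lower, 10 and 3, and 31 and 34. Fewer of the 41 than in the full fit were also called with 5G6 and 7F8 without DMSO replicate 2 at 48 h. The same held with 5G6 without either of its 48 h replicates. In these fits fewer of all tested genes were called too, so the loss was not particular to the 41. With 7F8, leaving out its replicate 1 at 48 h also lowered the count. So did leaving out 6D7 replicate 1, the library with the lowest sum of A549 and epithelial markers, with 6D7. NEU1 was called with each compound, and CTSB with 7F8, in all 16 fits that left out a library. The other 41 of the 45 calls were each lost in at least 1, yet none of the 45 changed direction. The median of the group stayed between 0.50 and 0.79 with 5G6, 0.40 and 0.74 with 6D7 and 0.80 and 1.10 with 7F8.

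The scaling of the libraries changed the background. Among all genes the 5G6 calls were 311 higher and 337 lower, the 6D7 calls 381 and 572, and the 7F8 calls 365 and 1038. After median-of-ratios scaling these were 364 and 211, 451 and 477, and 555 and 579, and the medians of the 41 genes were 0.77, 0.64 and 1.19 against 0.01, 0.01 and 0.00 over all genes. With mitochondrial genes kept, 6D7 had 1666 genes higher and 233 lower. In that setting 24 of the 41 were called with 6D7, with a median of 0.97 against 0.29 over all genes.

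**Figure D2:**
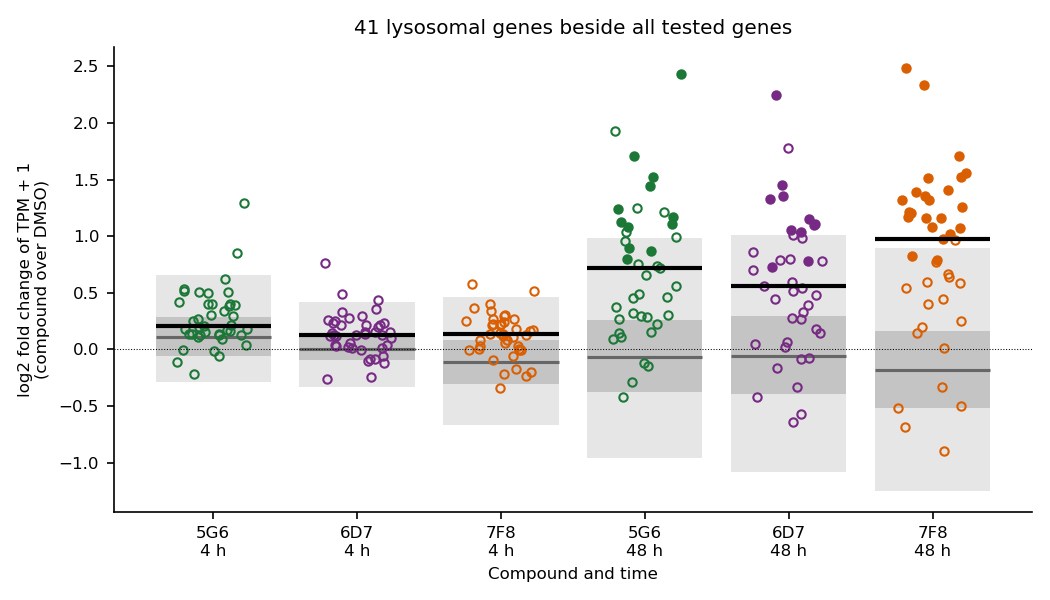
Log2 fold change of each of the 41 genes (circles, filled where called) beside all 15958 tested genes (light band, the 5th to 95th percentile; dark band, the 25th to 75th; grey line, median) for each compound and time against DMSO. The black line is the median of the 41, at 0.71, 0.56 and 0.97 for 5G6, 6D7 and 7F8 at 48 h.

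Among the 12 proteases 4 were called with 5G6, 4 with 6D7 and 7 with 7F8 at 48 h, with median log2 fold changes of 0.97, 0.76 and 1.24. CTSD, the main aspartic protease of the lysosome (chr11:1752755-1763927 on the minus strand), had 2307 and 1811 TPM with 5G6, 1764 and 2130.0 with 6D7, 2468 and 1767 with 7F8 and 598 and 842 with DMSO. Every compound library was above both DMSO libraries. CTSD rose by 1.53, 1.45 and 1.56 on the log2 scale with 5G6, 6D7 and 7F8 (SE 0.22 each), limma BH-adjusted p = 0.00752, 0.0066 and 0.00328. CTSB, a cysteine protease (chr8:11842524-11868150 on the minus strand), had 602 and 528 TPM with 5G6, 497 and 543 with 6D7, 699 and 654 with 7F8 and 182 and 234 with DMSO. The groups did not overlap, and the 7F8 libraries were the highest. CTSB rose by 1.45, 1.33 and 1.71 on the log2 scale with 5G6, 6D7 and 7F8 (SE 0.21 each), limma BH-adjusted p = 0.00805, 0.00855 and 0.00217. CTSA, a carboxypeptidase that also shields NEU1 and beta-galactosidase in a complex (chr20:45890144-45898820 on the plus strand), had 132 and 140.4 TPM with 5G6, 129 and 149 with 6D7, 168 and 156 with 7F8 and 59.5 and 69.1 with DMSO, again with no overlap. Its log2 fold changes were 1.08, 1.10 and 1.32 with 5G6, 6D7 and 7F8 (SE 0.21 each), limma BH-adjusted p = 0.019, 0.0152 and 0.00598. Without DMSO replicate 1 at 48 h, CTSD had 1.28, 1.20 and 1.31 with 5G6, 6D7 and 7F8 (none called, adjusted p = 0.0547 with 7F8), CTSB 1.26, 1.15 and 1.53 (adjusted p = 0.101, 0.115 and 0.0445) and CTSA 0.97, 0.99 and 1.22 (adjusted p = 0.175, 0.146 and 0.0751).

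CTSL, a cysteine protease (chr9:87725437-87731469 on the plus strand), was among the most abundant of the 41 but spread more between replicates. It had 1364 and 1747 TPM with 5G6, 731 and 1724 with 6D7, 1559.7 and 1345 with 7F8 and 698 and 603 with DMSO, and the lower 6D7 library stood just above the DMSO libraries. Only the 7F8 difference was called (log2 fold change 1.16 ± 0.32, limma BH-adjusted p = 0.0444), and with 5G6 the value was 1.25 ± 0.32 (adjusted p = 0.0512) and with 6D7 0.79 ± 0.32 (adjusted p = 0.174). CTSF, a further cysteine protease, was the reverse case. It had 82.9 and 76.5 TPM with 5G6, 73.1 and 71.1 with 6D7, 62.8 and 63.6 with 7F8 and 37.4 and 49.7 with DMSO, and was called with 5G6 (0.87 ± 0.18) and 6D7 (0.73 ± 0.18) but not with 7F8 (0.54 ± 0.18, limma BH-adjusted p = 0.0864). Without 1 library the CTSL call was kept in 2 of 16 fits and the CTSF calls in 13 with 5G6 and 4 with 6D7.

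CTSS, a protease best known from antigen presentation in immune cells (chr1:150730188-150765957 on the minus strand), had a log2 fold change second to that of NEU1 with each compound. It had 86.5 and 36.3 TPM with 5G6, 87.4 and 28.9 with 6D7, 149.6 and 37.2 with 7F8 and 18.4 and 10.7 with DMSO. Replicate 1 was the higher one in every group, and every compound library was above both DMSO libraries. CTSS was called with 7F8 (2.34 ± 0.63, limma BH-adjusted p = 0.0409), not with 5G6 (1.93 ± 0.63, adjusted p = 0.118) or 6D7 (1.78 ± 0.63, adjusted p = 0.125). Without 7F8 replicate 1 the 7F8 value was 1.35, adjusted p = 0.343. Over the same libraries the 7 leukocyte markers summed to 3.54 to 4.44 TPM with 5G6 and 1.91 to 3.86 with 6D7. The sums were 4.82 to 6.84 TPM with 7F8 and 5.83 to 8.90 with DMSO. Most of each sum was CD14, and the other markers stayed below 1 TPM. A relation of these markers to CTSS was not tested.

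TPP1, a tripeptidyl peptidase lost in a childhood form of Batten disease, had 80.7 and 104 TPM with 5G6, 69.1 and 105 with 6D7, 97.4 and 99.7 with 7F8 and 34.8 and 43.5 with DMSO. All 6 compound libraries were above the DMSO ones, yet only 7F8 passed (log2 fold change 1.32 ± 0.31, limma BH-adjusted p = 0.0239), with 0.0528 for 5G6 and 0.0597 for 6D7. CTSO, a scarce cysteine protease, had 9.78 and 5.36 TPM with 7F8 and 1.99 and 2.33 with DMSO and rose by 1.39 ± 0.30 (adjusted p = 0.0174). The other 4 proteases were not called. CTSC, which trims dipeptides, had 115 and 147 TPM with 5G6, 74.9 and 153 with 6D7, 271 and 214 with 7F8 and 137 and 186 with DMSO, with values high in 7F8 and split in 6D7. CTSH, an aminopeptidase, had 14.7 and 18.5 TPM with 5G6, 12.0 and 21.3 with 6D7, 5.98 and 9.10 with 7F8 and 11.2 and 14.1 with DMSO, and here the 7F8 libraries were the lowest. CTSK, the collagen-cutting cathepsin of bone, stayed at 2.06 to 6.69 TPM in all 16 libraries. CTSZ, a carboxypeptidase, had log2 fold changes of 0.11, -0.07 and 0.01 with 5G6, 6D7 and 7F8 (SE 0.17 each) and overlapped DMSO with every compound.

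Among the 13 glycosidases 3 were called with 5G6, 3 with 6D7 and 8 with 7F8, with medians of 0.74, 0.59 and 1.08. NEU1, the lysosomal sialidase (chr6:31859052-31862932 on the minus strand), had the largest fold change of the 41 with each compound. It had 157 and 142 TPM with 5G6, 122 and 140.3 with 6D7, 185 and 129 with 7F8 and 26.6 and 27.0 with DMSO. The DMSO libraries were close together and every compound library stood far above them. NEU1 rose by 2.44, 2.25 and 2.48 on the log2 scale with 5G6, 6D7 and 7F8 (SE 0.24 each), which is 5.41-fold, 4.75-fold and 5.59-fold, limma BH-adjusted p = 0.00266, 0.0025 and 0.00104. HEXA, the alpha subunit of beta-hexosaminidase, which degrades ganglioside (chr15:72343435-72376473 on the minus strand), had 188 and 209 TPM with 5G6, 160.3 and 209 with 6D7, 188 and 181 with 7F8 and 94.7 and 119 with DMSO. Its groups did not overlap, and it rose by 0.89, 0.78 and 0.79 on the log2 scale with 5G6, 6D7 and 7F8 (SE 0.17 each), limma BH-adjusted p = 0.0164, 0.0216 and 0.0159. NAGLU, which removes N-acetylglucosamine from heparan sulfate (chr17:42534238-42544449 on the plus strand), had 171 and 128 TPM with 5G6, 137 and 134 with 6D7, 156 and 124 with 7F8 and 64.7 and 66.2 with DMSO. It too had no overlap and rose by 1.17, 1.04 and 1.08 on the log2 scale with 5G6, 6D7 and 7F8 (SE 0.28 each), limma BH-adjusted p = 0.0397, 0.0498 and 0.034, near the threshold. Without DMSO replicate 1 HEXA had 0.73, 0.62 and 0.63 (adjusted p = 0.174, 0.203 and 0.138). Without 1 library NAGLU was called in 8 of 16 fits with 5G6, 4 with 6D7 and 12 with 7F8.

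A further 5 glycosidases were called with 7F8 and with neither other compound. MAN2B1, the acid alpha-mannosidase, had 36.7 and 43.1 TPM with 5G6, 42.5 and 43.2 with 6D7, 61.4 and 67.0 with 7F8 and 23.6 and 33.4 with DMSO, and the compound libraries were all above DMSO with 7F8 highest. The 7F8 value was 1.16 ± 0.24 (limma BH-adjusted p = 0.0136). FUCA1, which removes fucose, had 32.9 and 32.0 TPM with 7F8 and 11.5 and 16.8 with DMSO and rose by 1.17 ± 0.24 (adjusted p = 0.0145). GAA, which breaks down glycogen, had 171 and 150.4 TPM with 7F8 and 66.5 and 85.5 with DMSO, a change of 1.08 ± 0.26 (adjusted p = 0.0242). IDUA, an enzyme of heparan and dermatan sulfate breakdown, rose by 1.52 ± 0.42 (adjusted p = 0.0449) and MANBA, the beta-mannosidase, by 1.26 ± 0.32 (adjusted p = 0.0299). IDUA had 55.8 and 42.7 TPM with 7F8 and 18.6 and 14.4 with DMSO. Its call was kept in 6 of the 16 fits without a library. With 5G6 and 6D7 these 5 genes had log2 fold changes between 0.49 and 1.01, none called, and a call with 7F8 alone is not by itself a difference between compounds.

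The other 5 glycosidases were called with none. GLB1, the acid beta-galactosidase, came nearest, with log2 fold changes of 0.99, 0.78 and 0.97 with 5G6, 6D7 and 7F8 (SE 0.28 each) and limma BH-adjusted p = 0.0693, 0.125 and 0.0506. GLA, the alpha-galactosidase lacking in Fabry disease, had lower values. It had 88.4 and 111 TPM with 5G6, 69.5 and 103 with 6D7, 107 and 79.4 with 7F8 and 139 and 127 with DMSO, and every compound library was below both DMSO libraries. The differences were -0.42, -0.64 and -0.52 on the log2 scale with 5G6, 6D7 and 7F8 (SE 0.23 each), limma BH-adjusted p = 0.367, 0.129 and 0.189, so none was called. Without 6D7 replicate 2 at 48 h GLA was called lower with 6D7 (-0.92, adjusted p = 0.0389), and CTSC also (-1.08, adjusted p = 0.0172). GALC, which cleaves galactosylceramide in myelin turnover, had 27.4 and 40.7 TPM with 5G6, 21.5 and 38.2 with 6D7, 11.9 and 18.3 with 7F8 and 22.5 and 35.6 with DMSO. The 7F8 libraries were the lowest, with -0.90 ± 0.32 (adjusted p = 0.103), while 5G6 and 6D7 overlapped DMSO. GUSB, the beta-glucuronidase, and AGA, which cuts the sugar from asparagine, had log2 fold changes between -0.17 and 0.44.

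**Figure D3:**
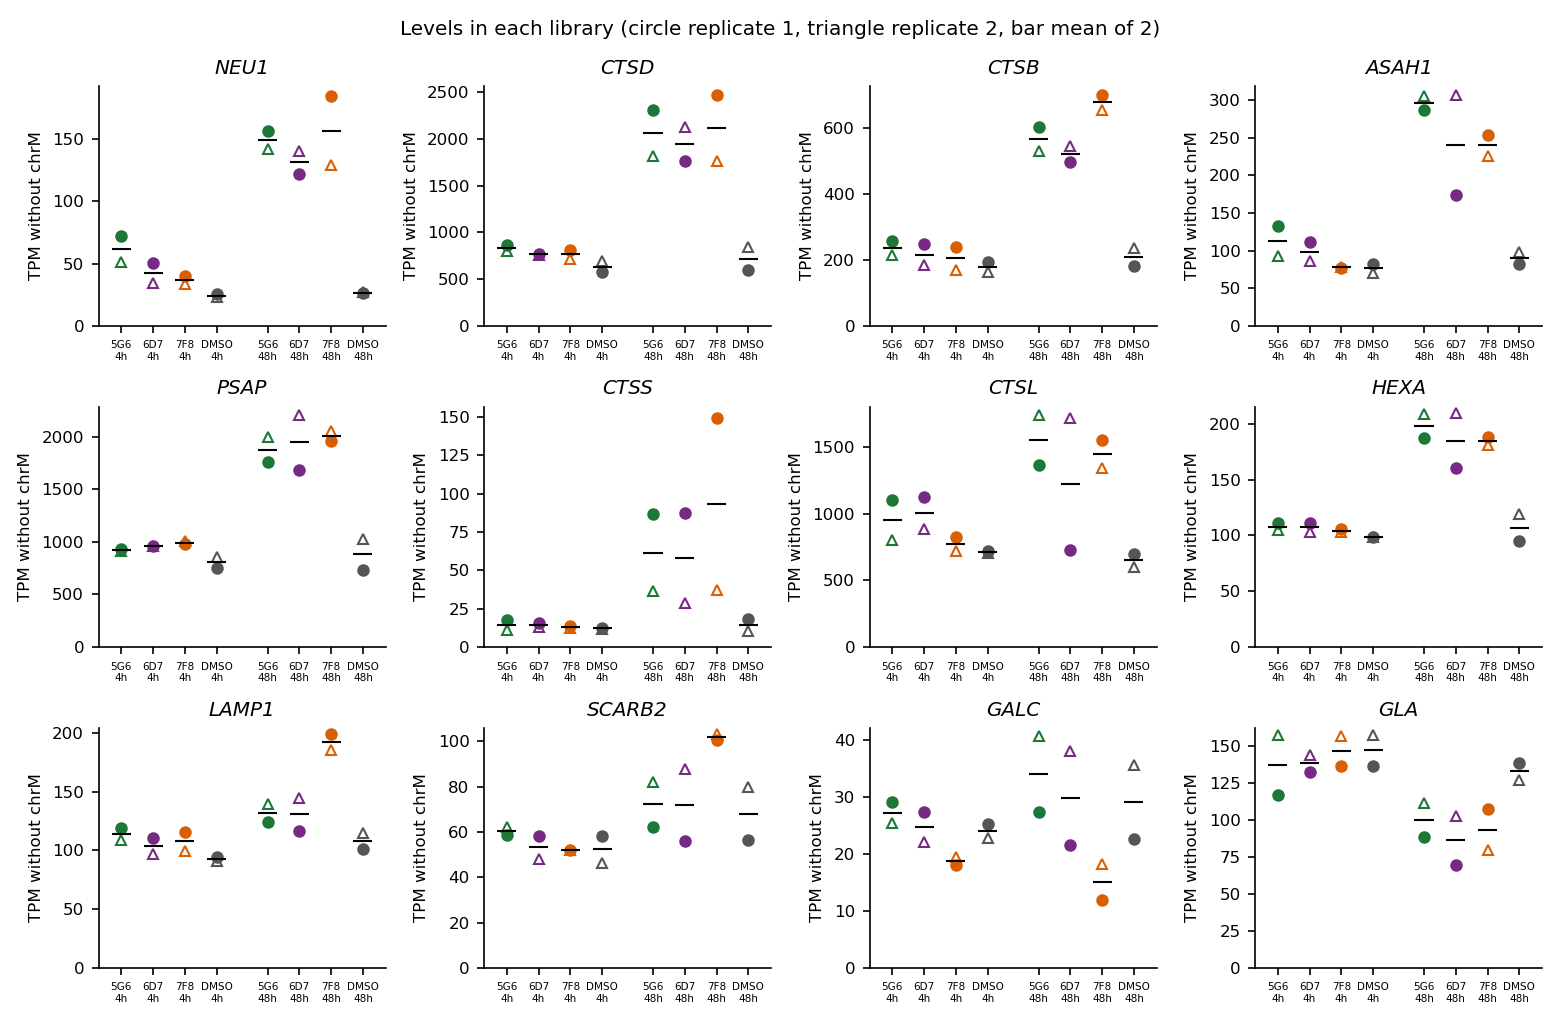
TPM without mitochondrial genes in each library for 12 of the genes, by compound and time with DMSO last in each time (circle, replicate 1; triangle, replicate 2; bar, mean of 2). NEU1 at 48 h lies between 122 and 185 TPM in the compound libraries, above DMSO at 26.6 and 27.0, whereas GLA at 48 h lies lower with the compounds than with DMSO, a difference that was not called.

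Of the 5 sulfatases 1 was called with 5G6, 0 with 6D7 and 1 with 7F8, with medians of 0.33, 0.18 and 0.64. ARSA, which removes sulfate from sulfatide (chr22:50622754-50628173 on the minus strand), had 32.4 and 29.7 TPM with 5G6, 25.6 and 32.8 with 6D7, 50.1 and 42.7 with 7F8 and 16.2 and 18.8 with DMSO. No compound library overlapped DMSO. ARSA rose with 5G6 (0.79 ± 0.20, limma BH-adjusted p = 0.0453) and 7F8 (1.36 ± 0.20, adjusted p = 0.00416) and missed the threshold with 6D7 (0.70 ± 0.20, adjusted p = 0.0586). The 5G6 call was kept in 4 of the 16 fits without a library. IDS and SGSH, which desulfate heparan sulfate, and ARSB and GALNS, which act on other sulfated glycans, had log2 fold changes between -0.42 and 0.67 and no call.

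Of the 6 lipid and phosphate hydrolases 3 were called with 5G6, 2 with 6D7 and 4 with 7F8, with medians of 0.79, 0.56 and 1.00. ASAH1, acid ceramidase (chr8:18055992-18084998 on the minus strand), had 287 and 306 TPM with 5G6, 173 and 307 with 6D7, 254 and 227 with 7F8 and 82.1 and 98.0 with DMSO. All compound libraries exceeded DMSO, although the 6D7 pair was wide apart. ASAH1 rose by 1.71, 1.35 and 1.41 on the log2 scale with 5G6, 6D7 and 7F8 (SE 0.26 each), limma BH-adjusted p = 0.00859, 0.0151 and 0.00991. These calls were kept in 13, 15 and 14 of the 16 fits without a library. SMPD1, acid sphingomyelinase (chr11:6390414-6394998 on the plus strand), had 33.4 and 24.0 TPM with 5G6, 29.8 and 24.5 with 6D7, 31.4 and 22.1 with 7F8 and 10.9 and 14.3 with DMSO, with no overlap. It rose by 1.12, 1.05 and 1.02 on the log2 scale with 5G6, 6D7 and 7F8 (SE 0.28 each), limma BH-adjusted p = 0.0453, 0.0474 and 0.0415, calls that were kept in 6, 5 and 7 of the 16 fits without a library. LIPA, the lipase that frees cholesterol from esters taken up in lipoproteins (chr10:89213569-89252039 on the minus strand), had 174 and 146 TPM with 5G6, 124 and 144 with 6D7, 214 and 114 with 7F8 and 63.4 and 71.0 with DMSO. LIPA was called with 5G6 (1.24 ± 0.29, limma BH-adjusted p = 0.0367) and 7F8 (1.21 ± 0.29, adjusted p = 0.0243), and with 6D7 it had 0.98 ± 0.29 (adjusted p = 0.0691). Without 7F8 replicate 1 the LIPA value with 7F8 was 0.76 (adjusted p = 0.236), and the 5G6 call was kept in 10 of 16 fits. ACP2, the lysosomal acid phosphatase, was called with 7F8 only (0.97 ± 0.22, adjusted p = 0.0214). PPT1 and PPT2, thioesterases that remove fatty acids from proteins and other thioesters, had values between -0.50 and 0.15.

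The activator proteins lift lipids out of membranes for these enzymes. PSAP, the precursor of the saposins (chr10:71816283-71851375 on the minus strand), had the highest mean of the 41 genes over the 16 libraries. It had 1762 and 1997 TPM with 5G6, 1688 and 2212 with 6D7, 1961 and 2055 with 7F8 and 736 and 1029.6 with DMSO. Every compound library was above both DMSO libraries, and PSAP rose by 1.11, 1.15 and 1.20 on the log2 scale with 5G6, 6D7 and 7F8 (SE 0.18 each), limma BH-adjusted p = 0.0101, 0.00821 and 0.00489. Without DMSO replicate 1 these were 0.86, 0.91 and 0.96 (adjusted p = 0.126, 0.111 and 0.0697). GM2A, the ganglioside activator that serves HEXA, had 53.5 and 76.3 TPM with 5G6, 43.0 and 73.6 with 6D7, 94.7 and 84.6 with 7F8 and 24.0 and 39.1 with DMSO. GM2A was called with 7F8 (1.52 ± 0.29, limma BH-adjusted p = 0.0121) and had 1.04 ± 0.29 with 5G6 (adjusted p = 0.0743) and 0.86 ± 0.29 with 6D7 (adjusted p = 0.112).

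Of the 3 membrane glycoproteins 0 were called with 5G6, 0 with 6D7 and 1 with 7F8. LAMP1, an abundant glycoprotein of the lysosomal membrane (chr13:113297239-113323672 on the plus strand), had 124 and 139 TPM with 5G6, 117 and 144 with 6D7, 199 and 185 with 7F8 and 101 and 115 with DMSO. The 7F8 pair stood above all others, and the 5G6 and 6D7 pairs lay just above DMSO. LAMP1 rose with 7F8 by 0.83 ± 0.16 (limma BH-adjusted p = 0.0125), and had 0.29 ± 0.16 with 5G6 and 0.27 ± 0.16 with 6D7, not called. Without 7F8 replicate 1 the LAMP1 value was 0.78 (adjusted p = 0.127). LAMP2, which also serves autophagy (chrX:120426148-120469349 on the minus strand), had 95.4 and 133 TPM with 5G6, 81.8 and 139 with 6D7, 132 and 129 with 7F8 and 65.6 and 88.1 with DMSO, with 0.56, 0.48 and 0.77 on the log2 scale with 5G6, 6D7 and 7F8 (SE 0.25 each) and adjusted p = 0.239, 0.282 and 0.0727. SCARB2, the receptor that carries glucocerebrosidase to the lysosome (chr4:76158737-76213899 on the minus strand), had 62.3 and 82.0 TPM with 5G6, 56.2 and 88.0 with 6D7, 101 and 103 with 7F8 and 56.3 and 79.8 with DMSO. Only the 7F8 pair was clear of DMSO, with 0.60 ± 0.24 (adjusted p = 0.155).

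Added together, the 41 genes reached 9204 ± 168 TPM with 5G6, 8507 ± 1883 with 6D7 and 9689 ± 935 with 7F8 at 48 h, and 4456 ± 596 with DMSO (SD, n = 2 each). PSAP, CTSD, CTSL and CTSB had the highest means over all 16 libraries, treated ones included. They made up 65.8, 66.3 and 64.5 percent of the sum with 5G6, 6D7 and 7F8 and 55.2 percent with DMSO. In DMSO at 48 h CTSZ, at a mean of 265 TPM, stood above CTSB, at 208. The higher share with the compounds is thus in part set by how the 4 were chosen. The other 37 genes summed to 3144 ± 134, 2863 ± 519 and 3435 ± 320 TPM with the compounds and 1995 ± 245 with DMSO, so the sum of the other 37 was higher too. The sums carry no test.

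At 4 h none of the 41 was called with any compound by limma, and the share of all tested genes called was 0 percent with each. At an unadjusted p below 0.05 stood 4 of the 41 with 5G6, 1 with 6D7 and 2 with 7F8, beside 518, 180 and 867 of all genes. Medians of the 41 were 0.21, 0.13 and 0.13, against 0.11, 0.01 and -0.11 over all genes, and after median-of-ratios scaling 0.08, 0.11 and 0.23, against -0.01, -0.01 and -0.02. Without 1 library the 5G6 median ran from 0.13 (without DMSO replicate 2) to 0.37 (without DMSO replicate 1), the 6D7 median from -0.017 (without 6D7 replicate 1) to 0.25 (without 6D7 replicate 2) and the 7F8 median from 0.041 (without 7F8 replicate 1) to 0.22 (without 7F8 replicate 2). Log2 fold changes were above 0 for 36, 33 and 31 of the 41, beside 66.3, 51.8 and 35.3 percent of all tested genes. NEU1 had the lowest p of the group with 5G6 at 4 h as well. It had 72.4 and 51.1 TPM with 5G6, 50.3 and 34.8 with 6D7, 40.2 and 33.5 with 7F8 and 25.7 and 22.9 with DMSO. All 6 compound libraries were above the DMSO ones, highest with 5G6. The log2 fold changes were 1.29, 0.76 and 0.58 with 5G6, 6D7 and 7F8 (SE 0.24 each), limma BH-adjusted p = 0.251, 1 and 0.885. TPP1 was next with 5G6, at 51.5 and 45.9 TPM against 33.0 and 21.2 with DMSO (0.85 ± 0.31, adjusted p = 1). The next largest at 4 h were NAGLU with 5G6 (0.62 ± 0.28), CTSL and NAGLU with 6D7 (0.49 ± 0.32 and 0.44 ± 0.28) and ARSA and MAN2B1 with 7F8 (0.52 ± 0.20 and 0.40 ± 0.24), with both compound libraries above DMSO and none called.

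The effect at 48 h minus that at 4 h was tested for each compound and passed for none of the 41 in the fit without a replicate block. The share of all genes called was 0 percent for 5G6, 0 percent for 6D7 and 0.00627 percent for 7F8. At an unadjusted p below 0.05 stood 8, 9 and 21 of the 41, beside 1212, 1236 and 1384 of the 15958. The medians of the difference were 0.42, 0.49 and 0.74, against -0.19, -0.07 and -0.08 over all genes. The largest by p were CTSD for 5G6 (1.13 ± 0.31, limma BH-adjusted p = 0.460) and NEU1 for 6D7 (1.48 ± 0.34, adjusted p = 0.403) and 7F8 (1.91 ± 0.34, adjusted p = 0.191). Calls at 48 h and none at 4 h do not by themselves show that the effect differed between the times.

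**Figure D4:**
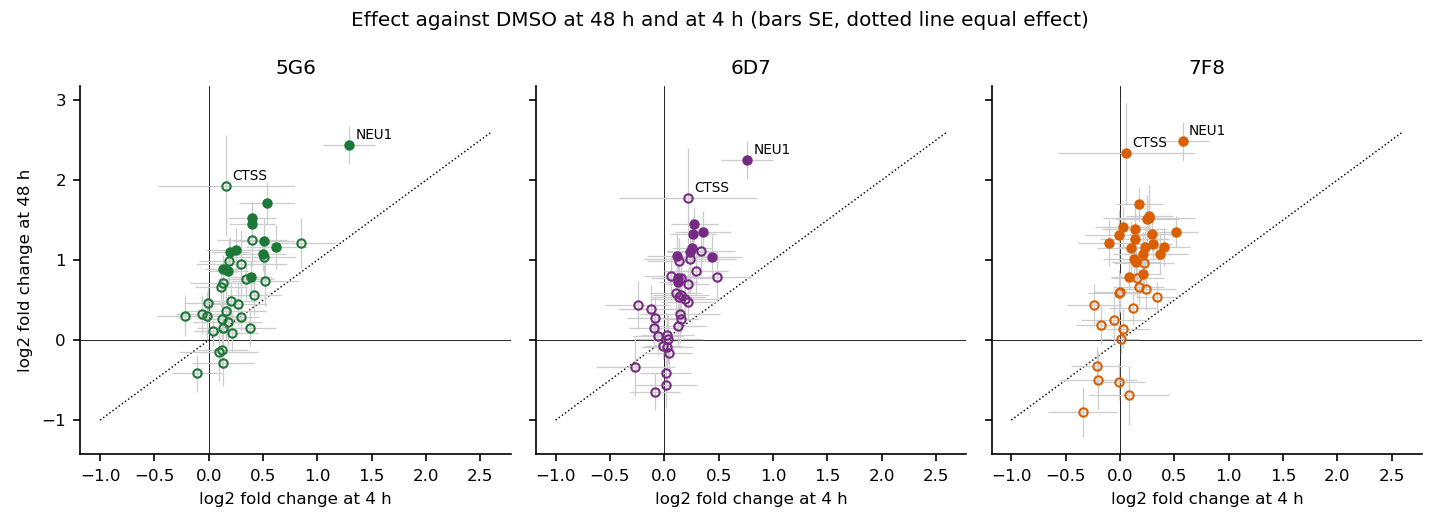
Log2 fold change against DMSO at 48 h (vertical) and 4 h (horizontal) for the 41 genes with each compound, with SE bars and a dotted line of equal effect; filled points were called at 48 h. NEU1, at 1.29, 0.76 and 0.58 at 4 h and 2.44, 2.25 and 2.48 at 48 h, is highest at 48 h in each panel.

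The compounds were compared directly in 6 pairs, 3 at each time and all at the labelled 4 µM, and none of the 41 genes was called in any pair by limma. The share of all genes called at 4 h was 0 percent for 5G6 against 6D7, 0.00627 percent for 5G6 against 7F8 and 0 percent for 6D7 against 7F8. At 48 h it was 0.00627, 0.288 and 0.489 percent. At an unadjusted p below 0.05 stood 1, 2 and 0 of the 41 at 4 h and 0, 8 and 13 at 48 h, beside 190, 1601 and 920 of all genes at 4 h and 340, 1453 and 2032 at 48 h. 5G6 and 6D7 differed by -0.22 to 0.46 at 48 h, with 95% intervals of ± 0.54 at the median and up to ± 1.38.

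Differences from 7F8 ranged from -0.88 to 1.13 with 5G6 and from -1.16 to 1.02 with 6D7. CTSC had 74.9 and 153 TPM with 6D7, below 271 and 214 with 7F8, a log2 difference of -1.16 (95% interval -1.78 to -0.54, limma BH-adjusted p = 0.112). The 5G6 pair, 115 and 147 TPM, was also below 7F8 (-0.88, interval -1.50 to -0.26, adjusted p = 0.288). LAMP1 differed from 7F8 by -0.54 with 5G6 (interval -0.90 to -0.18, adjusted p = 0.249) and by -0.56 with 6D7 (interval -0.92 to -0.20, adjusted p = 0.171). GALC and CTSH differed the other way, with 5G6 over 7F8 by 1.13 (interval 0.43 to 1.82, adjusted p = 0.211) and 1.06 (interval 0.26 to 1.86, adjusted p = 0.341). With 6D7 against 7F8 these were 0.92 and 1.02. ACP2 with 6D7 against 7F8, at -0.83 (limma BH-adjusted p = 0.150), was further from 0 than LAMP1. None passed the threshold, which does not show that the compounds act alike. Without 6D7 replicate 2 at 48 h CTSC was called between 6D7 and 7F8 (-1.67, adjusted p = 0.00870). With mitochondrial genes kept CTSF, CTSH, GALC and IDS were.

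**Figure D5:**
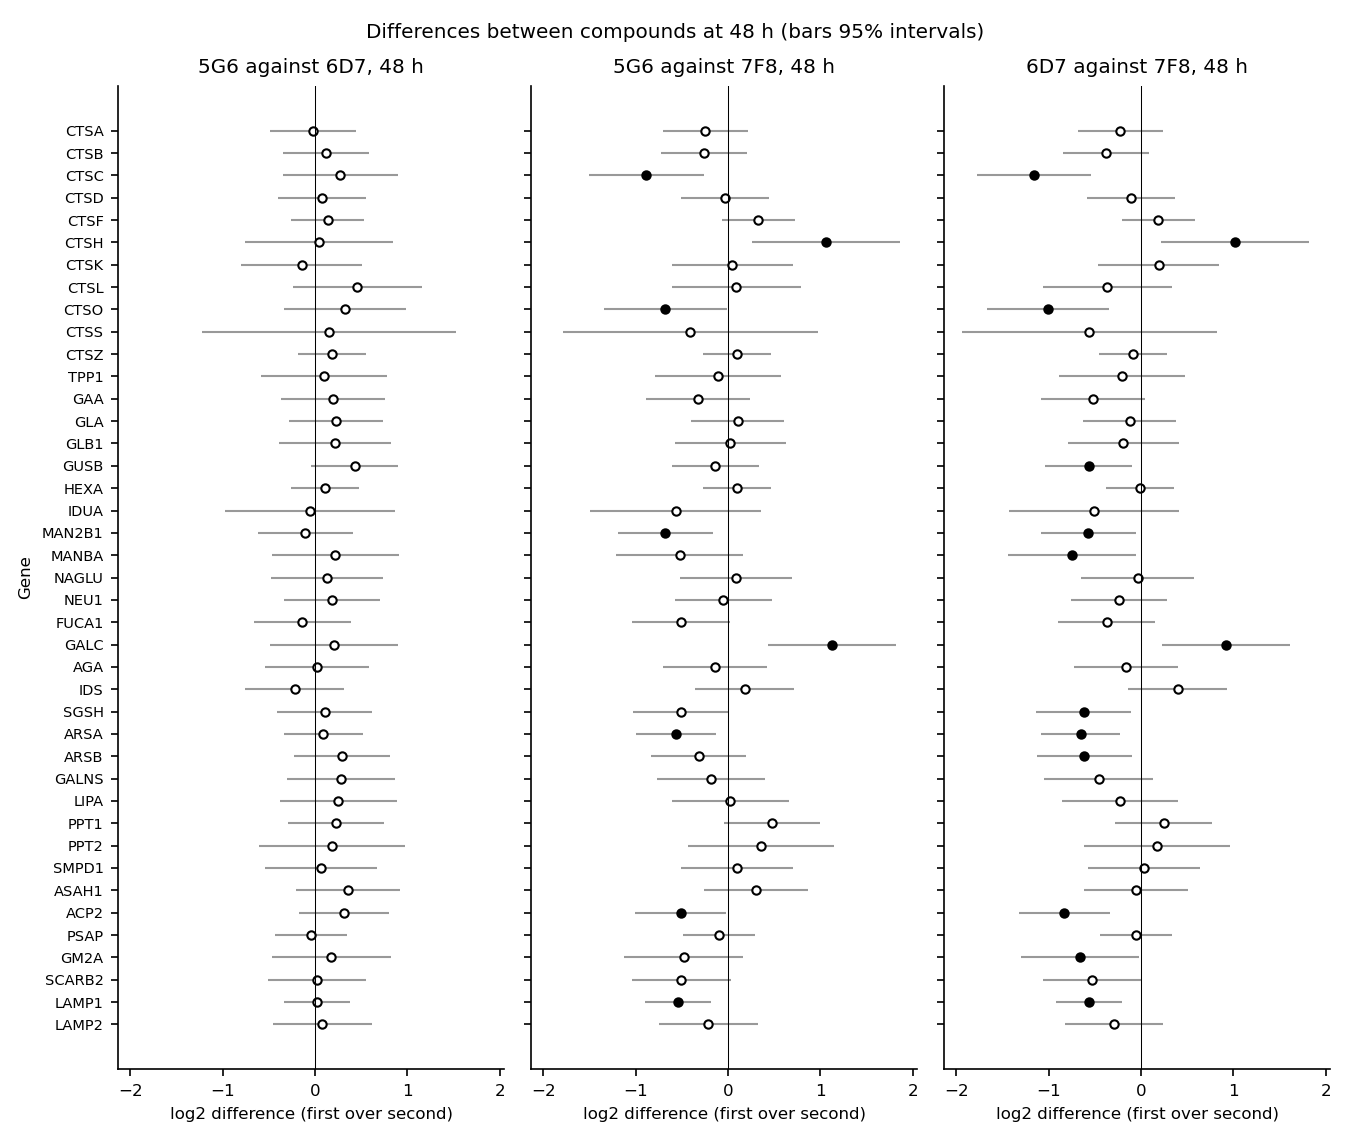
Differences between compounds at 48 h for the 41 genes (log2 scale, first compound over second, points with 95% intervals); filled points have an unadjusted p below 0.05, which 0, 8 and 13 genes had. No point passed the adjusted threshold, and CTSC, LAMP1, GALC and CTSH lie away from 0 in both panels with 7F8.

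Other lysosomal genes, in lists apart from the 41, were also called higher at 48 h in part, and limma called 0 of them lower. Of the 66 tested, 7 were called higher with 5G6, 9 with 6D7 and 10 with 7F8, beside 1.95, 2.39 and 2.29 percent of all tested genes. At 4 h limma called 0, and 7 with 5G6, 2 with 6D7 and 1 with 7F8 had an unadjusted p below 0.05. Among all 15958 genes 518, 180 and 867 had such a p. A list of 18 genes, enzymes but for NPC2, the soluble carrier of cholesterol, had 2 called with 5G6, 1 with 6D7 and 4 with 7F8. NPC2 was called with each compound, and with 6D7 it was the only one of this list. It had 592 and 481 TPM with 5G6, 313 and 424 with 6D7, 528 and 419 with 7F8 and 193 and 130 with DMSO. NPC2 rose by 1.74 ± 0.25, 1.20 ± 0.25 and 1.56 ± 0.25, limma BH-adjusted p = 0.00788, 0.0208 and 0.00600. ARSG, a further sulfatase of heparan sulfate, was called with 5G6 (1.69 ± 0.33, limma BH-adjusted p = 0.0196) and 7F8 (1.46 ± 0.33, adjusted p = 0.0207) and had 1.21 ± 0.33 with 6D7 (adjusted p = 0.0548). Of 17 further membrane proteins 2, 3 and 3 were called. NPC1, which receives cholesterol from NPC2 at the lysosomal membrane, had 185 and 238 TPM with 5G6, 141 and 184 with 6D7, 167 and 109 with 7F8 and 31.1 and 30.9 with DMSO. NPC1 rose by 2.72, 2.34 and 2.08 (SE 0.35 each), limma BH-adjusted p = 0.00630, 0.00662 and 0.00710. The sialic acid exporter SLC17A5, which clears the product of NEU1, had 35.3 and 48.0 TPM with 5G6, 50.002 and 52.1 with 6D7, 45.9 and 43.2 with 7F8 and 9.09 and 16.6 with DMSO. It rose by 1.66, 1.97 and 1.77 (SE 0.26 each), limma BH-adjusted p = 0.00864, 0.00436 and 0.00423.

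The V-ATPase, the proton pump that acidifies the lysosome, had 22 of 24 listed subunit genes tested, and 3, 5 and 2 of these were called higher with 5G6, 6D7 and 7F8. ATP6AP1, an accessory subunit, rose by 0.93 ± 0.19 with 5G6 and 0.93 ± 0.19 with 7F8, and ATP6V0D1, of the membrane sector, by 0.88 ± 0.18 with 6D7 (limma BH-adjusted p = 0.0219, 0.0140 and 0.0182). ATP6V0E1, also of the membrane sector, rose by 0.78 ± 0.16 with 5G6 and 0.84 ± 0.16 with 7F8, and ATP6V1E1, of the soluble sector, by 0.72 ± 0.16 with 6D7 (limma BH-adjusted p = 0.0220, 0.0116 and 0.0275). Of 9 genes that tag or sort enzymes by mannose 6-phosphate only GNPTG, a subunit of the enzyme that makes the tag, was called, with 7F8. It had 114 and 74.3 TPM with 7F8 and 36.7 and 31.2 with DMSO (1.42 ± 0.25, limma BH-adjusted p = 0.00898). Of the receptors for the tag, M6PR had 0.70 ± 0.19 with 5G6 (adjusted p = 0.0671) and 0.69 ± 0.19 with 6D7 (adjusted p = 0.0574), and IGF2R had 1.31 ± 0.38 with 7F8 (adjusted p = 0.0551), none of them called. Medians of the 4 lists at 48 h are given with 5G6, 6D7 and 7F8 in turn. They were 0.61, 0.48 and 0.70 for the enzymes and NPC2 and 0.28, 0.31 and 0.24 for the membrane proteins. For the V-ATPase they were 0.26, 0.36 and 0.25, and for sorting 0.24, 0.04 and 0.21. Over all tested genes the medians were -0.07, -0.06 and -0.18.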

How the data were processed

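Libraries were made from 1 µg of TRIzol-extracted, DNase I-treated RNA with a NEBNext Ultra kit, per the labels' protocols; strandedness was not given, so reads of overlapping or antisense genes cannot be told apart, and GUSB, IDS and CTSL have related pseudogene copies. The submitters' processing notes name STAR 2.6.1a, featureCounts 1.6.3, StringTie 2.0 and GRCh38, with no roles. The authors deposited 1 gene abundance table a library, whose TPM, FPKM and coverage columns stand as such per the file headers. TPM values were deposited scaled to a fixed sum with mitochondrial genes included. FPKM and coverage, as deposited, served here only to estimate aligned gigabases; no read counts were used.

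TPM was summed over rows of 1 gene name (15 rows on alternate contigs for CTSO, NEU1 and PPT2 were all 0), mitochondrial genes were dropped and each library rescaled to the same total. Genes with at least 1 TPM in at least 2 libraries were fitted on log2(TPM + 1) with limma 3.58.1 in R 4.3.3 (8 group means, 16 libraries, 8 residual degrees of freedom, a trended empirical Bayes variance with a median prior of 3.80 degrees of freedom). The 15 comparisons were tested two-sided and BH-adjusted over all genes of a comparison. The procedure was tested on simulated data. Tables were handled with Python 3.11.15, pandas 2.3.3, numpy 2.4.6 and matplotlib 3.10.9.

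The genes, lists, motifs and alternatives were chosen with earlier results of these data known. By rule the text gives the called genes, the 3 with the largest fold change in each comparison with DMSO, and always LAMP1, LAMP2, SCARB2, CTSB, CTSD, CTSL and PSAP, and of the other lysosomal lists the 2 genes of lowest p, given here for 48 h only; the text prints a part of these and gives the others by range and count. Genes outside that rule, among them CTSC, CTSH, GALC, GLA and GLB1, were added after their values were seen. Alternatives were mitochondrial genes kept, no filter, a pseudocount of 0.1, scaling by median of ratios (factors of 0.849 to 1.18), no variance trend, a replicate block and leaving out each library in turn. Aligned bases limit the precision of low genes, and with TPM alone no counting intervals were given.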

Additional observations from a re-analysis of the deposited data

How the results depend on the processing

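With 2 libraries a group, leaving out 1 leaves a lone sample assumed to vary like the others. The 45 calls against DMSO kept their direction under every alternative run, and 42, 34, 42, 43, 36 and 45 kept the call with mitochondrial genes kept, no filter, a pseudocount of 0.1, median-of-ratios scaling, no variance trend and the replicate block. Counts called, of 41, moved by over 1.5 times in 3 comparisons outside the fits that left out a library. For 6D7 against DMSO at 48 h, 10 became 24 with mitochondrial genes kept and 16 with the replicate block. For 6D7 against 7F8 at 48 h, 0 became 4 and 1 (ACP2) in these. For the 48 h minus 4 h effect of 7F8, 0 became 1 (NEU1, 1.91 ± 0.27, limma BH-adjusted p = 0.0282) with the replicate block. The cause was not tested. The labels' replicate numbers do not say what they share. Deviations of same-numbered samples correlated at 0.355 to 0.588 in the 12 pairs of groups of one hour and 0.054 to 0.336 in the 16 pairs across hours; only 2 numbers exist, so the block is an alternative. With it 5G6, 6D7 and 7F8 at 48 h had 18, 16 and 27 calls, GALC lower with 7F8 among them, and over all genes 711 higher and 998 lower, 826 and 1174, and 747 and 1974.

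Leaving out each library in turn gave 1 to 16 calls for 5G6, 1 to 10 for 6D7 and 2 to 25 for 7F8 at 48 h, 0 to 1 for 6D7 against 7F8 at 48 h, and 0 to 0 in the other 11 comparisons. The 6D7 median at 4 h ran from -0.017 (without 6D7 replicate 1 at 4 h) to 0.25. SCARB2 at 48 h, not called, ran to 0.34 with 5G6 and 0.39 with 6D7 at most. SCARB2 was -0.16 with 5G6 and -0.18 with 6D7 without DMSO replicate 1, -0.10 with 5G6 without 5G6 replicate 2, and -0.25 with 6D7 without 6D7 replicate 2.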
